A study of Mus musculus with 10 samples.

Results

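An siRNA against Rnf31 was compared with a non-targeting siRNA in mouse embryonic stem cells at the start of differentiation. The comparison takes the 2 arrays titled siRnf31 and the 2 arrays titled siNonTarget, 4 of the 10 arrays of the series, and covers all 18194 genes with a named probe set. Every group was made from NG4 cells, a line of mouse embryonic stem cells, and the labels name no genetic change. All cells, controls included, received siRNA at plating (reverse transfection) and then retinoic acid, and were collected for RNA after 48 h. The other groups, siSox17, siFbxw7 and siSocs3, also have 2 arrays each. Nothing in the labels states that a group's 2 arrays are of separate cultures, and the p-values therefore reflect the spread between arrays, which may be technical. The siRNA doses and sequences and the retinoic acid dose are not analysed here.

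Rnf31, also called HOIP, is the catalytic subunit of the linear ubiquitin chain assembly complex, in which it works with Rbck1 (HOIL-1) and Sharpin. The complex joins ubiquitin molecules head to tail on signalling proteins below tumour necrosis factor and other receptors. The chains recruit the kinase complex that holds Ikbkg (NEMO), which frees NF-kB to enter the nucleus and turn on its targets, and they restrain cell death. Otulin and Cyld remove linear chains. Retinoic acid acts through nuclear receptors that bind paired short repeats in DNA, and it moves embryonic stem cells out of pluripotency towards neural and posterior fates.

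The promoters below are those of 5 known targets of these pathways that hold a match to the motif, and the expression values of the genes follow. Each is the 120 bases before the gene's start, written 5′ to 3′ on the gene's strand from the RefSeq table of assembly GRCm38.p6, with the matched motif in capitals. In the first pair the motif is a tandem repeat of the short site AGGTCA (or AGTTCA or GGTTCA or GGGTCA) with any 5 bases between the copies, the arrangement bound by retinoic acid receptors.
Rarb, chr14:16575477-16575596, minus strand: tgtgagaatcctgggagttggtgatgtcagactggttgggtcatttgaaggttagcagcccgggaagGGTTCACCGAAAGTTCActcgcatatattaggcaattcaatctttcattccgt
Cyp26a1, chr19:37697688-37697807, plus strand: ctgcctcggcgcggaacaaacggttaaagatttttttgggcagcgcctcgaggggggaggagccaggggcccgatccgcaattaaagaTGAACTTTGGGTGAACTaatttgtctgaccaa
The repeat began 53 bases before the start of Rarb and 32 bases before that of Cyp26a1, where it lay on the opposite strand. Searched on both strands in the 250 bases before the start, it was in 29 of 32851 promoters, or 0.0883%, and in 2 of the 20 retinoic acid response genes that had a promoter in the table. In the next set the motif is an NF-kB site spelled GGGACTTTCC, GGGAATTTCC, GGGGATTTCC, GGGATTTTCC, GGGAATTCCC or GGGACTTCCC.
Nfkbia, chr12:55492648-55492767, minus strand: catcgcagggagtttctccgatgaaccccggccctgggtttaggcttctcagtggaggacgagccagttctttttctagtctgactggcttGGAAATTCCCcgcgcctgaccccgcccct
Cxcl1, chr5:90891125-90891244, plus strand: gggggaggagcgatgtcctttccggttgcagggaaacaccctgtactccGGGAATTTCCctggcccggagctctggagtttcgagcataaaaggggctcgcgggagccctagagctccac
Cxcl10, chr5:92348890-92349009, minus strand: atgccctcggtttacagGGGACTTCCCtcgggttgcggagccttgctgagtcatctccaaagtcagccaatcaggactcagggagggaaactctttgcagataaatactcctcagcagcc
These spellings, searched on both strands in the same 250 bases, were in 176 promoters, or 0.536%, and in 8 of the 21 NF-kB target genes with a promoter. They do not overlap the retinoic acid motif. A match describes the letters in the window and does not show binding.

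The arrays measure the level of a transcript as the fluorescence of its probe sets, given here as log2 intensity, where a difference of 1 is 2-fold. Values are listed as replicate 1 and then replicate 2, and errors are standard errors of a linear model over all 10 arrays (2 per group). All 8 fixed markers of embryonic stem cells lay above the 74.5th percentile of gene levels. Their summed log2 level was 15.15 and 14.78 with siRnf31 and 14.81 and 14.66 with siNonTarget. Summed fibroblast feeder markers, all 10 measured, were at 10.35 and 11.09 with siRnf31 and 10.66 and 11.00 with siNonTarget. The controls were uneven: 220 genes differed at least 2-fold between the siNonTarget arrays and 105 between the siRnf31 arrays. On siNonTarget replicate 1 the actin control probes differed by 0.50 (log2) between the 3′ and 5′ end of the transcript, against 0.28 and 0.25 on the siRnf31 arrays and 0.25 on siNonTarget replicate 2. The same array read Acta2, smooth muscle actin, at 7.16 against 11.39 on its replicate, and Tagln, another smooth muscle gene, at 9.58 against 12.34. Across genes, siRnf31 replicate 2 was closest to siNonTarget replicate 2 (r = 0.9971), and siRnf31 replicate 1 was closest to siSox17 replicate 1 (r = 0.9967), above the r of 0.9952 between the siRnf31 replicates. The control siNonTarget replicate 1 was closest to siFbxw7 replicate 1 (r = 0.9974), above the r of 0.9936 with its own replicate.

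Rnf31 itself read 7.13 and 7.59 with siRnf31 and 7.91 and 7.62 with siNonTarget. Both siRnf31 arrays lay below both controls, but replicate 2 stood just under the lower one. The difference was -0.40 ± 0.17, with a limma adjusted p of 0.778. Without siRnf31 replicate 1 it was -0.17, and without siRnf31 replicate 2 it was -0.63. The other groups read 7.64 and 7.62 (siSox17), 7.80 and 7.55 (siFbxw7) and 7.95 and 7.89 (siSocs3), so 1 array of another siRNA read lower than siRnf31 replicate 2. Against the mean of those 3 groups Rnf31 was at -0.38 ± 0.14 (adjusted p = 0.603). The lowest of the 10 arrays for Rnf31 was therefore a siRnf31 array, while a lower level on the second was not shown. The array gives mRNA only, and Rnf31 protein was not measured here.

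**Figure D1:**
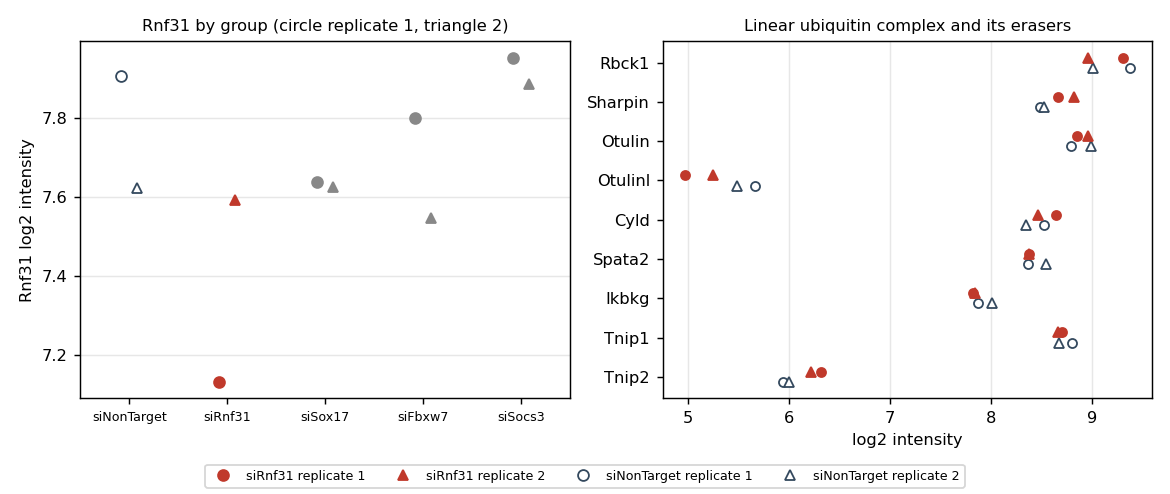
Left, log2 intensity of Rnf31 on each array of the 5 siRNA groups; siRnf31 replicate 1 is lowest at 7.13 and siRnf31 replicate 2, at 7.59, sits within the spread of the other groups. Right, log2 intensity of 9 genes of linear ubiquitin signalling on the 2 siRnf31 arrays (filled) and the 2 siNonTarget arrays (open); Otulinl is lower and Sharpin and Tnip2 higher on both siRnf31 arrays.

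Over all genes, none passed the test between siRnf31 and siNonTarget: 0 of 18194 (0%) had an adjusted p under 0.05, and the smallest was 0.698. Before adjustment, 1068 genes (5.87%) had a p under 0.05, against 909.7 that a threshold of 0.05 alone would give. Of these, 396 were higher (2.18%) and 672 lower (3.69%). For 3021 genes (16.6%) both siRnf31 arrays lay above both controls, and for 3385 (18.6%) both lay below. Only 15 of the first (0.0824%) and 28 of the second (0.154%) also differed 2-fold or more in the mean. In data simulated with the model's spread as independent normal noise, the same test recovered 40% of changes of 0.585 and 98% of changes of 1 (log2). The changes were put on randomly drawn genes, and the median standard error over all genes was 0.13. Genes of large difference could have far larger errors, such as 0.79 for Vnn1 and 0.70 for Meox1. The recovered shares do not hold for such genes, and they do not show that 2-fold changes were absent. Named genes below are therefore described by their values, and the shares just given are the background for each count.

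The other genes that build, read or erase linear chains differed little. Of the 9 measured, 0 passed the test, 2 lay above both controls, 2 lay below, and the median difference was -0.05 against -0.00 over all genes. Sharpin, the adaptor that stabilises Rnf31, read 8.66 and 8.82 against 8.48 and 8.52 (0.24 ± 0.12, adjusted p = 0.778). Rbck1 differed by -0.06 ± 0.16 (adjusted p = 0.942), with values of 9.31 and 8.96 against 9.38 and 9.01. The erasers Otulin and Cyld were at 0.02 ± 0.14 and 0.12 ± 0.14, and Spata2, which links Cyld to the complex, was at -0.08 ± 0.10. Otulinl, a relative of Otulin without its enzyme activity, was the gene of this list with the smallest p: it read 4.97 and 5.24 against 5.66 and 5.48, a difference of -0.47 ± 0.12 (adjusted p = 0.778). It is dim, at the 32nd percentile of gene levels, and its second probe set, dimmer still, differed by 0.02. Among proteins that bind the chains, Ikbkg was at -0.11 ± 0.10, Tnip1 at -0.05 ± 0.09 and Tnip2 at 0.30 ± 0.14.

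Signalling proteins between the tumour necrosis factor receptor and NF-kB gave 1 of 21 genes above both controls and 3 below, with a median of -0.02. Map3k14, the kinase of the non-canonical NF-kB branch, was the one above: 6.29 and 6.19 against 5.83 and 5.91, a difference of 0.37 ± 0.09. It was the only member among the 10 genes of smallest p in its direction (adjusted p = 0.778). The adaptors Traf5 and Traf6 were lower on both arrays, by estimates of -0.28 ± 0.10 and -0.26 ± 0.10, and Tab1, which activates the kinase Map3k7, by -0.22 ± 0.14. The dimmer probe set of Traf5 differed the other way, by 0.14, and those of Traf6 lay between -0.24 and 0.16.

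NF-kB target genes sat slightly above 0 by their median, with no member past the test. Of 26 measured, 0 passed the test, 7 lay above both controls (26.9% of the list, against 16.6% of all genes), 3 below, and the median was 0.12. Against the same controls the list's median was higher with each other siRNA: 0.31 for siSox17, 0.13 for siFbxw7 and 0.24 for siSocs3. For siRnf31 minus the mean of those 3 groups it was -0.05. Nfkbia, the inhibitor that NF-kB itself induces, read 11.45 and 11.45 against 11.51 and 11.38, so the groups overlapped, with a difference of 0.01 ± 0.09. Tnfaip3 (A20), another feedback inhibitor, read 6.41 and 6.15 against 5.65 and 6.29, a difference of 0.31 ± 0.32. Birc3, an inhibitor of apoptosis, was at -0.03 ± 0.10. The chemokine genes Cxcl1 and Cxcl10, whose promoters are printed above, differed by 0.23 ± 0.16 and 0.77 ± 0.69.

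The higher estimates in this list rested largely on 1 control array. Gadd45b, a stress-response gene, read 9.40 and 9.45 with siRnf31 against 7.86 and 9.15, and Csf1, a macrophage growth factor, 7.89 and 7.66 against 6.32 and 7.61. Their differences were 0.92 ± 0.46 and 0.81 ± 0.43 (adjusted p = 0.778 for both). For Cxcl10, 7.63 and 7.01 with siRnf31 lay on either side of 7.48 on siNonTarget replicate 2, while siNonTarget replicate 1 read 5.62. Without siNonTarget replicate 1 and siFbxw7 replicate 1, the 2 arrays whose actin probes differed most, Cxcl10 was at -0.16, Tnfaip3 at -0.00 and the list median at 0.05. Bcl3, an NF-kB cofactor that is also a STAT3 target, was steadier: 8.02 and 7.83 against 7.48 and 7.61 (0.38 ± 0.12). Sod2, the mitochondrial superoxide dismutase, read 10.99 and 10.84 against 10.68 and 10.67 (0.24 ± 0.11).

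Cell death genes were scattered around 0. Of 19 measured, 2 lay above both controls, 5 below, 0 passed, and the median was -0.01. Cflar, which blocks caspase-8 and is itself an NF-kB target, read 6.46 and 6.45 against 6.76 and 6.84 (-0.35 ± 0.13). The initiator caspase Casp9 read 6.77 and 6.91 against 7.28 and 7.24 (-0.42 ± 0.14), but its other probe sets, both dimmer, differed by only -0.10 and -0.01. Casp8 read 7.61 and 7.84 against 8.07 and 7.91 (-0.26 ± 0.13). Xiap, which inhibits caspases, was at -0.24 ± 0.10, and Ripk3, the kinase of necroptosis, at -0.17 ± 0.10. These 5 genes lay below both controls, and each had an adjusted p of 0.778. Interferon response genes were divided, with 5 of 25 above and 6 below, and a median of -0.05. Among them Mx1 was at -0.34 ± 0.11, Stat2 at -0.32 ± 0.12, Ifih1 at -0.24 ± 0.11 and Tap1 at 0.64 ± 0.31.

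The genes of smallest p were lower with siRnf31. Rflnb, a filamin-binding protein, read 7.88 and 8.04 against 8.90 and 8.86, a difference of -0.92 ± 0.14 (adjusted p = 0.698). Of its 3 probe sets, the others differed by -1.19 and -0.24. Frem1, a basement membrane protein, read 3.89 and 4.09 against 5.04 and 5.50 (-1.28 ± 0.20). Foxa2, a transcription factor of endoderm, node and floor plate, read 7.30 and 7.84 against 8.62 and 9.01 (-1.24 ± 0.20). For these 3 genes the gap between groups was wider than the gap between replicates, and each kept an estimate below 0 whichever array was left out. Myzap (-0.56 ± 0.09) and the transcription factor Tcf24 (-0.74 ± 0.12) had the same adjusted p of 0.698. They were followed, at 0.778, by the chloride channel Ano1 (-0.78 ± 0.14), Rarb (-0.72 ± 0.13), Ccdc153 (-0.64 ± 0.12), the autophagy kinase Ulk2 (-0.61 ± 0.12) and the vesicle-release protein Doc2a (-0.53 ± 0.11). The estimate for Ulk2 came as close to 0 as -0.31 under another processing setting.

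In the other direction the smallest p values belonged to smaller differences, all with an adjusted p of 0.778. Guca2a, the peptide guanylin, read 5.25 and 5.24 against 4.79 and 4.65 (0.53 ± 0.12). Trh, thyrotropin-releasing hormone, read 9.33 and 9.03 against 8.68 and 8.55 (0.56 ± 0.13). The protease inhibitor Cst6 was at 0.53 ± 0.13, the kinase Mok at 0.52 ± 0.13, Epp13 at 0.95 ± 0.24, Prss52 at 0.40 ± 0.11, the keratin Krt24 at 0.34 ± 0.09 and the mucin Muc1 at 0.60 ± 0.16. Pidd1, a p53-induced protein that activates caspase-2 and signals to NF-kB, read 8.58 and 8.42 against 8.06 and 8.14 (0.40 ± 0.11).

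**Figure D2:**
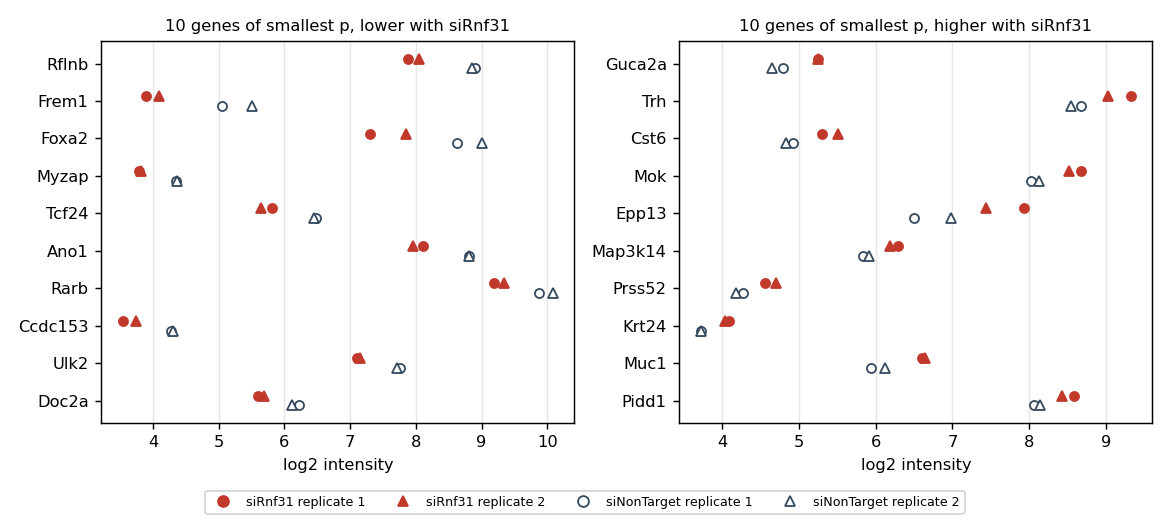
Log2 intensity on the 2 siRnf31 arrays (filled) and the 2 siNonTarget arrays (open) for the 10 genes of smallest p in each direction among those whose groups do not overlap, smallest p at the top. The gaps on the left reach 1.28 (Frem1), those on the right 0.95 (Epp13), and none passed the adjusted threshold.

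The largest differences were not the most precise ones. The 5 largest below both controls were Fbxo32, a muscle-atrophy F-box protein (-1.82 ± 0.48), the homeobox gene Meox1 (-1.81 ± 0.70), the receptor Gpr50 (-1.61 ± 0.45), arginase Arg1 (-1.57 ± 0.63) and the angiotensin receptor Agtr1a (-1.40 ± 0.53). Fbxo32 read 5.87 and 5.93 against 8.09 and 7.35, and its other probe sets differed by -1.17 and -1.36. The probe set at -1.36 read 5.03 and 6.39 against 7.66 and 6.47, so its second siRnf31 array was just under the second control. Meox1 was likewise uneven: 6.34 on siRnf31 replicate 1 and 8.14 on replicate 2, against 9.69 and 8.42. A further probe set of Gpr50 differed by only -0.30. The 5 largest above both controls were Vnn1 (1.57 ± 0.79), the chemokine Ppbp (1.46 ± 0.76), the small heat shock protein Cryab (1.42 ± 0.70), the homeobox gene Msx2 (1.41 ± 0.57) and Cidea, a lipid droplet protein (1.38 ± 0.41). Vnn1 read 7.75 and 6.99 against 4.85 and 6.74, and Cryab 10.01 and 9.31 against 7.29 and 9.19, so the distance to siNonTarget replicate 2 was short. Of the 15 genes that were 2-fold higher, 2 (Cdx1 and Cidea) were 2-fold higher than siNonTarget replicate 2 alone, and 14 were so against replicate 1 alone. Of the 28 that were 2-fold lower, the counts were 13 and 26. The part of the high actin difference of siNonTarget replicate 1 in these values was not tested.

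Retinoic acid response genes read lower with siRnf31, most of all on replicate 1. Of the 28 measured, 14 lay below both controls (50%, against 18.6% of all genes) and 1, Cdx1, above, and 26 estimates were below 0, with a median of -0.55. None passed the test. Rarb, a retinoic acid receptor that retinoic acid induces directly, read 9.19 and 9.34 against 9.87 and 10.08. Its groups were well apart, and both siRnf31 arrays lay below both controls by more than the gap between replicates. Cyp26a1, the enzyme that clears retinoic acid, read 12.70 and 12.80 against 13.26 and 12.87 (-0.31 ± 0.14), so it was just below the second control. Tgm2, a transglutaminase, read 9.03 and 9.45 against 10.07 and 10.02 (-0.81 ± 0.23). Cdx1, a caudal homeobox gene that answers both retinoic acid and Wnt, read 9.28 and 8.25 against 7.77 and 7.70 (1.03 ± 0.29). Rarg was at 0.03 ± 0.18 and Stra8, a meiosis gene used as a marker of retinoic acid action, at -0.08 ± 0.11.

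The size of this difference depended on which arrays were paired. The list's median was -1.01 for siRnf31 replicate 1 minus siNonTarget replicate 1, -0.63 for replicate 1 minus control 2, -0.41 for replicate 2 minus control 1, and -0.04 for replicate 2 minus control 2. The replicates themselves were apart by a median of 0.60 within siRnf31 (2 minus 1) and by -0.32 within siNonTarget. Against siNonTarget replicate 2 alone, 16 of 28 genes were below on both siRnf31 arrays (57.1%, against 32.3% of all genes), and against siNonTarget replicate 1 alone 21 of 28 were (75%, against 38.6%). In these bulk samples, fewer cells that had answered retinoic acid and less RNA per cell cannot be told apart. Compared with the same controls, the list's median was -0.76 for siSox17, -0.35 for siFbxw7 and -1.24 for siSocs3. These values share the control arrays. Set directly against siSocs3, the siRnf31 median was 0.69, and 2 of 28 genes passed the test, both higher with siRnf31, where 0.627% of all genes did.

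**Figure D3:**
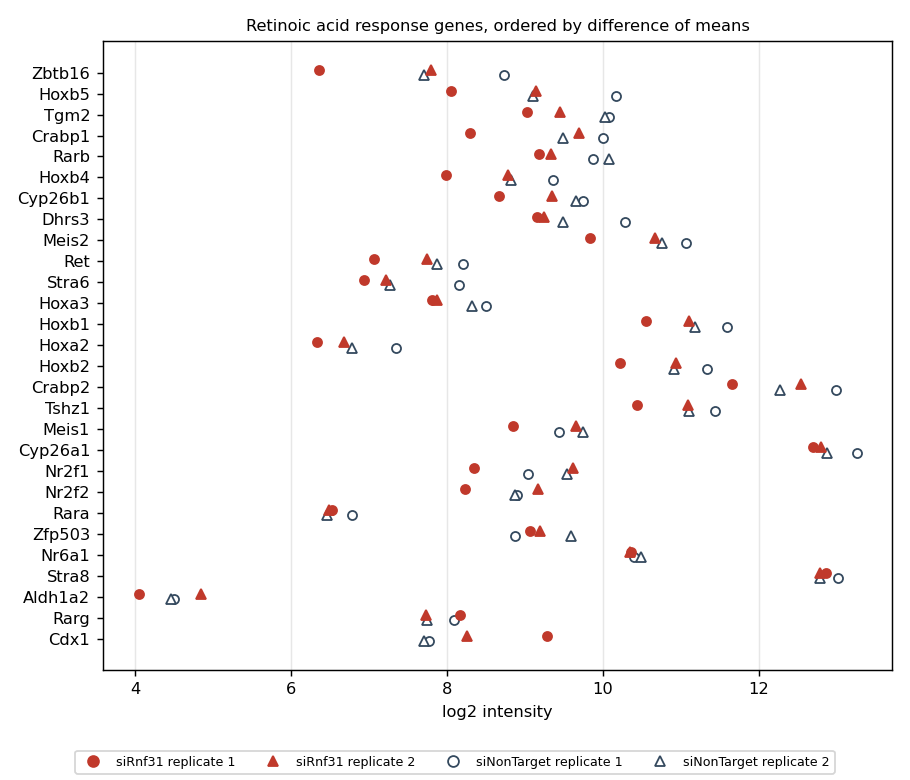
Log2 intensity of the 28 retinoic acid response genes on the 2 siRnf31 arrays (filled) and 2 siNonTarget arrays (open), ordered by the difference of group means. Replicate 1 of siRnf31 (filled circle) is usually the lowest point and replicate 1 of siNonTarget (open circle) the highest, while the second replicates (triangles) lie close together, with Rarb, Tgm2 and Hoxa3 among the exceptions.

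HOX genes, which lay out the body axis and are opened in order by retinoic acid, were spread in a like way. Of 24 measured, 3 lay above both controls (12.5%, against 16.6% of all genes) and 7 below (29.2%, against 18.6%). The median was -0.36 and went from -0.83 in the pair of first replicates to 0.01 in the pair of second ones. Against the same controls it was -0.42 for siSox17, -0.19 for siFbxw7 and -1.23 for siSocs3. For siRnf31 minus the mean of those 3 groups it was 0.30. Among anterior members, Hoxb1 read 10.55 and 11.10 against 11.59 and 11.18 (-0.56 ± 0.25), Hoxa3 7.81 and 7.88 against 8.49 and 8.32 (-0.57 ± 0.18), and Hoxb4 7.98 and 8.79 against 9.36 and 8.82 (-0.70 ± 0.30). The other probe sets of Hoxa3 differed by -0.18, -0.22 and 0.23. Hoxa4 was at -0.57 ± 0.26. Hoxa9, from the posterior part of its cluster, read higher, 8.47 and 7.98 against 7.53 and 7.08 (0.92 ± 0.28, adjusted p = 0.778). Hoxc13, which is not in the list, was also higher on both arrays, 7.09 and 6.11 against 5.28 and 5.75 (1.09 ± 0.34).

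Neural ectoderm genes were lower in part. Of 26 measured, 11 lay below both controls (42.3%, against 18.6% of all genes) and 5 above (19.2%, against 16.6%), with a median of -0.17. The other siRNAs had medians of -0.18 (siSox17), -0.09 (siFbxw7) and -0.36 (siSocs3) against the same controls. For siRnf31 minus the mean of those 3 groups the median was 0.04. Fabp7, a fatty acid binding protein of radial glia, read 4.49 and 4.75 against 5.90 and 5.37 (-1.02 ± 0.22), and the Notch ligand Dll1 read 6.40 and 6.08 against 7.05 and 6.65 (-0.61 ± 0.17). Sox1 and Pax6, transcription factors of early neural cells, were at -1.13 ± 0.58 and -0.68 ± 0.32. For Sox1 the siRnf31 values of 6.47 and 7.30 stood against 8.74 and 7.29, so the groups overlapped. Irx3 read 8.74 and 9.84 against 10.14 and 10.19 (-0.87 ± 0.39), while Neurog1, a neuronal factor, was slightly higher (0.28 ± 0.12). The 5 fixed neural markers summed to 10.16 and 10.43 with siRnf31 and to 10.87 and 10.47 with siNonTarget.

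Endoderm genes had a like count, 11 of 26 below both controls (42.3%, against 18.6% of all genes) and 3 above (11.5%, against 16.6%). Their median was -0.17. Beside Foxa2, its partner Foxa1 read 8.64 and 9.04 against 9.28 and 9.39 (-0.50 ± 0.19), and the secreted transport protein Ttr, a visceral endoderm product, read 6.12 and 7.34 against 7.47 and 8.53 (-1.27 ± 0.40). Sox7 was at -0.91 ± 0.42 and Gata6 at -0.25 ± 0.22, whereas Gata4, at 5.91 and 5.51 against 5.93 and 5.48, had the same level in both groups to within 0.01 ± 0.29. Sox17 read 7.47 and 7.60 against 6.37 and 7.39 (0.65 ± 0.53). The list's median was -0.15 and -0.18 in the pairs that use siRnf31 replicate 2, and -0.22 and -0.06 in those that use replicate 1. Summed markers of extraembryonic endoderm, all 8 measured, were at 10.19 and 10.45 with siRnf31 and 10.60 and 10.83 with siNonTarget.

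Pluripotency genes leaned the other way on siRnf31 replicate 1. In the naive list, 6 of 19 lay above both controls (31.6%, against 16.6% of all genes) and 1 below. The median was 0.22 (-0.05 and 0.03 in the pairs that use siRnf31 replicate 2). In the core list 6 of 15 lay above (40%, against 16.6%) and 3 below (20%, against 18.6%), with a median of 0.10. Nanog read 12.06 and 11.28 against 11.26 and 11.24 (0.42 ± 0.22), so only the first array stood clear of the controls. Esrrb showed the same order, 9.42 and 8.56 against 8.39 and 8.28 (0.66 ± 0.23), as did Tdgf1, the Nodal co-receptor, with 11.29 and 10.13 against 9.92 and 9.99 (0.76 ± 0.33). Pou5f1 (Oct4) read 12.36 and 11.45 against 11.84 and 11.10 and overlapped the controls (0.44 ± 0.32), and Klf4 was at 0.59 ± 0.35, Zfp42 at 0.19 ± 0.17 and Sox2 at -0.17 ± 0.14. Utf1, a chromatin protein of pluripotent cells, was higher on both arrays, 9.56 and 9.42 against 8.66 and 8.95 (0.69 ± 0.24), and so was Ooep, 10.74 and 10.74 against 10.41 and 10.37 (0.35 ± 0.14). Lower on both arrays were Lin28a (-0.46 ± 0.15) and Gbx2 (-1.13 ± 0.42), the latter with 8.31 and 8.59 against 10.13 and 9.02. A second, dimmer probe set of Lin28a was at 0.19, with overlapping values of 7.16 and 8.48 against 7.11 and 8.15, and the mean of the Lin28a probe sets was at -0.13. For primed-state genes the counts were 3 of 15 above and 5 below, with Sox3 at -0.78 ± 0.38 and Pou3f1 at -0.72 ± 0.38.

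**Figure D4:**
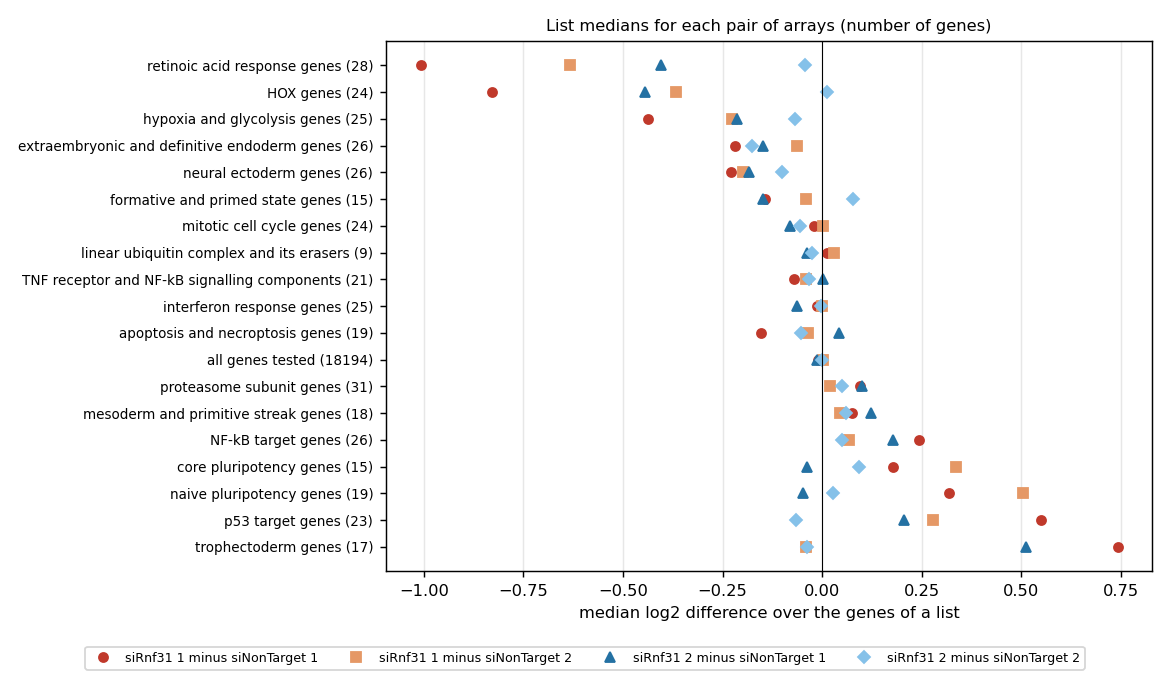
Median log2 difference over the genes of 18 lists and over all genes tested, for each of the 4 pairs of a siRnf31 and a siNonTarget array; the number of genes is in brackets. Points of the retinoic acid, HOX, trophectoderm and p53 lists are spread widely, and the pair of second replicates (light diamonds) stays within 0.18 of 0 in every list shown.

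Caudal and trophectoderm genes were mostly on the high side. Of 17 trophectoderm genes 15 estimates were above 0, with a median of 0.38, but only 2 lay above both controls, and the median against siNonTarget replicate 2 was -0.04 for both siRnf31 arrays. Cdx2, a regulator of trophectoderm and of posterior identity, was one of the pair: 8.18 and 7.46 against 6.08 and 6.96 (1.30 ± 0.41, adjusted p = 0.778). Its dimmer probe set differed by 0.47. Against the same controls Cdx2 was at 1.33 with siSox17, 0.58 with siFbxw7 and 1.45 with siSocs3. Esx1 was the other gene above both controls (0.38 ± 0.13). Wnt target genes gave 6 of 16 above both controls (37.5%, against 16.6% of all genes) and 1 below. Axin2, a feedback inhibitor of the pathway, read 7.66 and 7.42 against 6.89 and 7.23 (0.47 ± 0.16, and -0.22 at its dim second probe set). Rnf43 was at 0.31 ± 0.12. Mesoderm genes gave 7 of 18 above (38.9%, against 16.6%) and 3 below (16.7%, against 18.6%). Mixl1 was at 0.37 ± 0.14, Wnt3a at 0.44 ± 0.17 and Wnt3 at 0.51 ± 0.20, against Lhx1 at -0.57 ± 0.19. The mesoderm markers were dim, with 0 of the 4 measured above the median gene.

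Hypoxia and glycolysis genes were lower in number more than in size. Of 25 measured, 11 lay below both controls (44%, against 18.6% of all genes) and 1 above, and the median was -0.27. By limma 8 had an unadjusted p under 0.05, all lower (32%, against 3.69% of all genes). The glucose transporter Slc2a1 read 12.93 and 13.10 against 13.73 and 13.29 (-0.49 ± 0.17), hexokinase Hk2 10.58 and 10.51 against 10.85 and 10.78 (-0.27 ± 0.10), and the oxygen sensor Egln3 6.47 and 6.94 against 7.86 and 7.12 (-0.78 ± 0.29). P4ha1, a collagen-modifying enzyme, was at -0.33 ± 0.12. In this list too, the estimate was largest in the pair of first replicates (-0.44) and smallest in the pair of second ones (-0.07). Below siNonTarget replicate 2 alone were 12 of 25 (48%, against 32.3% of all genes). The other siRNAs were also lower against the same controls, with medians of -0.24 (siSox17), -0.16 (siFbxw7) and -0.16 (siSocs3). For siRnf31 minus the mean of those 3 groups the median was -0.0024.

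p53 target genes gave 6 of 23 above both controls (26.1%, against 16.6% of all genes) and 1 below, with a median of 0.27. Against the same controls that median was 0.39 for siSox17, 0.17 for siFbxw7 and 0.13 for siSocs3. For siRnf31 minus the mean of those 3 groups it was 0.02. Phlda3 read 11.11 and 10.99 against 10.15 and 10.80 (0.57 ± 0.25), Btg2, an antiproliferative gene, 9.97 and 9.98 against 9.21 and 9.63 (0.56 ± 0.25), and Polk was at 0.55 ± 0.22, whereas Rrm2b was at -0.35 ± 0.13. The median for siRnf31 replicate 2 minus siNonTarget replicate 2 was -0.07. Proteasome subunit genes are relevant because the study concerns the ubiquitin-proteasome system. They had 12 of 31 above both controls (38.7%, against 16.6% of all genes) and 1 below, but the median difference was only 0.07. The members of smallest p, Psmb7 (0.21 ± 0.11) and Psmd4 (0.18 ± 0.11), had a limma adjusted p of 0.778. MYC target genes had 7 of 29 above (24.1%, against 16.6%) and 0 below, with a median of 0.06 and Wdr12 at 0.31 ± 0.10.

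Other signalling lists showed single genes rather than a common direction. FGF feedback genes had 4 of 17 below both controls and 1 above, with the receptor Fgfr2 at -0.63 ± 0.17 and the phosphatase Dusp6 at -0.47 ± 0.21. LIF and STAT3 genes had 5 of 20 above and 2 below, with Sgk1 at 0.73 ± 0.30 and Socs1 at -0.36 ± 0.16. TGF-beta, Nodal and BMP genes had 5 of 22 on each side, with Id2 at -0.42 ± 0.16 and the receptor Acvr2b at -0.75 ± 0.36. Fibroblast genes had 2 of 23 on each side, with Loxl1 at 0.33 ± 0.13 and Col6a1 at -0.37 ± 0.16. Mitotic genes had 7 of 24 below and 5 above, with Bub1 at -0.24 ± 0.12 and Plk1 at -0.33 ± 0.17, and germline genes 2 of 19 on each side, with Prdm1 at -0.86 ± 0.35 and Dnd1 at -0.36 ± 0.15. For the remaining 5 lists, of sterol synthesis (18 genes), stress (22), DNA replication (24), 2-cell-stage (11) and histone genes (7), medians lay between -0.08 and 0.06. For the 2-cell-stage list the median of 0.06 stands for array pairs far apart: -0.02 and -0.57 for siRnf31 replicate 1 minus siNonTarget replicates 1 and 2, and 0.80 and 0.16 for siRnf31 replicate 2, with a median of 0.73 between the siRnf31 replicates (2 minus 1).

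The siRnf31 arrays were also set against the other targeted siRNAs. The siNonTarget arrays are not in these differences, but they do enter the model's estimate of spread, and siFbxw7 replicate 1, which is in the first of them, had an actin difference of 0.60, above the 0.50 of siNonTarget replicate 1. Against the mean of siSox17, siFbxw7 and siSocs3, 0 of 18194 genes (0%) passed, with a smallest adjusted p of 0.494, and 1444 (7.94%) had an unadjusted p under 0.05. Without either siNonTarget array 1 gene passed, the sodium channel Scn3a. The genes of smallest p were Mypn, a sarcomere protein (-0.50 ± 0.07), Utp14b (-0.51 ± 0.08) and the myosin light chain Myl4 (-0.49 ± 0.08) on the low side, and Spata1 (0.54 ± 0.09), Rnf227 (0.51 ± 0.09) and Guf1, a mitochondrial translation factor (0.47 ± 0.08), on the high side. Each of these had an adjusted p of 0.494. On the low side siSocs3 was the group that stood apart. Mypn read 6.19 and 6.15 with siRnf31 and 7.46 and 7.46 with siSocs3, while siSox17 and siFbxw7 lay between 6.23 and 6.33. Against siNonTarget, siRnf31 was at -0.0017 for Mypn, -0.09 for Utp14b and -0.15 for Myl4, and siSocs3 at 1.29, 1.09 and 0.63. For the genes on the high side, siRnf31 minus siNonTarget was 0.32 for Spata1, -0.06 for Rnf227 and 0.11 for Guf1. Foxa2 was at -0.66 ± 0.17 (adjusted p = 0.551) and Tcf24 at -0.44 ± 0.10 (0.495), but both overlapped siSocs3, which read 7.72 and 8.04 for Foxa2 and 5.80 and 5.74 for Tcf24. Rarb was at 0.07 ± 0.11, Fbxo32 at -0.03 ± 0.39 and Frem1 at -0.20 ± 0.16. The retinoic acid list had a median of 0.30 in this comparison, which differed in sign between the single groups: 0.19 against siSox17, -0.17 against siFbxw7 and 0.69 against siSocs3. The naive pluripotency list had a median of -0.45, made up of -0.35, -0.10 and -0.86 in the same order.

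In direct pairs, 0 genes (0%) passed against siSox17, where 1397 (7.68%) had an unadjusted p under 0.05, and 0 (0%) against siFbxw7, where 945 (5.19%) did. Against siSocs3, 387 genes (2.13%) passed: 114 were higher (0.627%) and 273 lower (1.5%) with siRnf31. That count was 22 without siSocs3 replicate 1, 160 without siSocs3 replicate 2, 141 and 122 without siRnf31 replicates 1 and 2, and 222 without either siSox17 replicate. Among NF-kB targets 0 of 26 passed in this pair, and among the linear ubiquitin genes 0 of 9.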

How the data were processed

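RNA of 10 samples was amplified, labelled and hybridised to Affymetrix arrays of 45101 probe sets, per the labels' protocols. The authors deposited intensities, 1 for each probe set on an array, from RMA according to the submitters' processing notes. RMA corrects background and equalises array distributions, which hides a shift common to most genes. Deposited intensities lie between 5.05 and 31606.3 (array medians 46.39 to 47.95). They are linear, and log2 was taken here. Neither its version nor any later scaling is stated, and RMA compresses differences of dim genes.

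Genes were named through the platform annotation: 34958 probe sets had 1 symbol, 932 had several, 9211 were not listed, and 34754 matched the RefSeq table (GRCm38.p6), with 0 symbols changed. The probe set of highest mean stood for each of 18194 genes. One limma 3.58.1 model (R 4.3.3, lmFit and eBayes) was fitted to the log2 values of all 5 groups, with Benjamini-Hochberg adjustment per contrast, a threshold of 0.05 and two-sided tests. With 2 arrays against 2, an exact permutation test cannot go below 0.333. Simulated data with known changed genes gave 12 false among 181 calls. Figures used matplotlib 3.10.9.

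The 30 gene lists (670 entries, 619 matched, 592 distinct genes) and the genes compared were chosen with earlier results of these data known. Genes were named from a rule, and not every gene it gives is printed, so the NF-kB targets shown are a part of the 26. The rule takes Rnf31, members of the linear ubiquitin and NF-kB target lists, and fixed pluripotency and lineage genes. In each direction it takes the 10 of smallest p and the 5 of largest difference among genes without overlap. It adds 3 per direction against the other siRNAs and up to 4 of smallest p of each other list. Clone, Gm and Rik names were skipped. Cyp26a1, Rarg, Stra8, Acta2, Scn3a, Hoxc13 and the Hedgehog list were chosen after their values were seen. A gene lies above or below both controls when both siRnf31 arrays do. Alternatives were a replicate block, the 4 arrays alone, other scalings, filters, priors and probe set rules, and leaving out arrays.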

Additional observations from a re-analysis of the deposited data

Results flagged for a closer look

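The difference between siRnf31 and another targeted siRNA was tested directly in each pair of groups, and only siSocs3 gave genes past the threshold, 387 in all by limma. The following genes named above were among them, each with its log2 difference siRnf31 minus siSocs3. Trim43a, a gene of the 2-cell-stage list, differed by -2.71 ± 0.32 (adjusted p = 0.00796). Against siNonTarget it was at 0.69 with siRnf31 and at 3.40 with siSocs3. In the same list, 10 of 11 genes passed, all lower with siRnf31, where 273 of 18194 genes (1.5%) were. Among pluripotency genes, the list members lower with siRnf31 than with siSocs3 included Zfp296 by -1.54 ± 0.17 (adjusted p = 0.00608) and Nanog by -1.12 ± 0.22 (adjusted p = 0.0431). Mypn differed by -1.29 ± 0.09 (adjusted p = 0.00149), Epp13 by -1.26 ± 0.24 (adjusted p = 0.0356), Utp14b by -1.19 ± 0.10 (adjusted p = 0.00247) and Myl4 by -0.78 ± 0.10 (adjusted p = 0.00901). Higher with siRnf31 than with siSocs3 were Ulk2 by 0.63 ± 0.12 (adjusted p = 0.0337), Spata1 by 0.61 ± 0.11 (adjusted p = 0.0252) and Rnf227 by 0.53 ± 0.11 (adjusted p = 0.0424). Against siNonTarget, Ulk2 was at -0.61 with siRnf31 and at -1.23 with siSocs3. The count of 387 ranged from 22 to 552 when 1 array was left out.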

How the results depend on the processing

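With 0 genes called between siRnf31 and siNonTarget in every setting run, the limits concern sizes. The settings were followed for 138 of the genes that the rule gives, not for all of them. Of these 138, 123 kept the sign of their estimate in all settings and 15 did not, and none passed the threshold in any. The labels do not say that replicate numbers pair the samples. The replicate differences of siRnf31 correlated across genes at 0.09 with those of siNonTarget and between -0.26 and 0.03 with the other groups', and those of siNonTarget at 0.42 with siFbxw7's and -0.22 with siSox17's. The numbers were therefore not taken as pairs, and with a replicate block 0 genes passed and 1083 had an unadjusted p under 0.05, against 1068. Other scalings moved the all-gene median to between -0.01 and 0.00, and the share of lower genes among those with an unadjusted p under 0.05 went from 62.9% to 56.4% with quantile normalization and 70.9% with median centring. Without the dimmest 50% of genes, 511 had an unadjusted p under 0.05, 3265 instead of 6406 did not overlap, the NF-kB target median was 0.23, and 245 genes differed from siSocs3, with fewer genes tested. Leaving out 1 array gave 757 to 2019 genes at that unadjusted p, the highest without siNonTarget replicate 2, and 22 to 552 against siSocs3. Against the mean of the other siRNAs, it gave 0 to 1 genes: without either siNonTarget array Scn3a, a sodium channel, passed (-1.38, adjusted p = 0.0277). The retinoic acid median lay between -0.78 and -0.22 and Rnf31 between -0.63 and -0.17.

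Signs turned as follows. With quantile normalization Birc3 was at 0.0073, Mypn at 0.0077 and Gata4 at -0.011, with median centring Gata4 was at -0.0038 and Nfkbia at -0.0028, and with the mean of probe sets Cyld was at -0.0058, Mypn at 0.12 and Gata4 at -0.0095. Without the 2 arrays whose actin probes differed most, Rbck1 was at 0.12, Otulin at -0.077, Tnip1 at 0.010, Tnfaip3 at -0.0049, Cxcl10 at -0.16, Mypn at 0.0061 and Tagln at -0.071. Leaving out 1 array gave -0.079 to 0.019 for Birc3, -0.16 to 1.69 for Cxcl10, -0.22 to 0.23 for Gata4, -0.023 to 0.020 for Mypn, -0.057 to 0.069 for Nfkbia, -0.077 to 0.12 for Otulin, -0.019 to 0.89 for Pou5f1, -0.24 to 0.12 for Rbck1, -0.14 to 0.012 for Rnf227, -0.16 to 0.011 for Spata2, -0.071 to 2.69 for Tagln, -0.0049 to 0.63 for Tnfaip3, -0.11 to 0.010 for Tnip1 and -0.080 to 0.45 for Zfp42. The cause of these changes was not tested.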

Other observations

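Genes of the Hedgehog pathway, a list drawn up after the values were seen and therefore not tested, lay mostly below the controls with siRnf31. Hedgehog ligands bind Ptch1 and release Smo, which activates Gli transcription factors, and Gli1, Ptch1 and Hhip are themselves induced by the pathway. Of 18 genes measured, 10 lay below both controls, where 18.6% of all genes did, and 2 above, where 16.6% did, with a median of -0.35. Because the list was chosen on these values, the counts cannot be read as an excess over those shares. Gli1 read 6.48 and 6.99 against 7.998 and 7.49 (-1.01 ± 0.25), Ptch1 11.10 and 11.63 against 12.53 and 12.37 (-1.09 ± 0.30), and Hhip 6.58 and 6.36 against 7.80 and 6.80 (-0.83 ± 0.28). Foxf1, a mesenchymal target, read 5.63 and 6.42 against 6.82 and 7.43 (-1.10 ± 0.29), and Nkx2-9, a ventral neural factor, 8.80 and 8.64 against 9.32 and 9.04 (-0.46 ± 0.14). All 5 had an adjusted p of 0.778 over all genes by limma, as did the ligand Ihh, which read higher, 4.76 and 4.64 against 4.34 and 4.36 (0.35 ± 0.09). The list's median was -0.57 for the pair of first replicates and -0.10 for the pair of second ones, and 11 of 18 genes lay below siNonTarget replicate 2 alone, where 32.3% of all genes did. Against the same controls, Ptch1 was at -1.56 with siSox17, -0.82 with siFbxw7 and -0.94 with siSocs3. In the same order, Gli1 was at -1.18, -0.59 and -0.56, and Hhip at 0.30, 0.22 and -1.42. Set against the mean of those 3 groups, siRnf31 was at 0.02 for Ptch1, -0.24 for Gli1 and -0.53 for Hhip.

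Of 10092 probe sets with no gene name or with several, array control probes left out, 0 passed the test between siRnf31 and siNonTarget by limma. Among them 507 had an unadjusted p under 0.05, and the smallest adjusted p was 0.206.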
